A study of Mus musculus with 6 samples.

Results

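The report describes the microRNA gene rows of blood cells on an expression array: Mir223, Mir142, Mir155, Mir146 and Mir103-2. A row is the summary value of a probe set, and a gene was taken from the row that names it and no other gene. Of the 5 microRNA genes, 4 had such a row, 1 row each, among 19938 genes measured in all. Mir223 had 0 rows and is not analysed here, apart from the long non-coding RNA whose span holds it. Mir103-2 was chosen by the measured difference of its row between the genotypes, a large fall after Cebpa deletion, and the other 4 because they are known microRNA loci of blood cells. The difference between genotypes at these rows is therefore given as a description, with no test.

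The cells were LSK CD150- cells of mouse bone marrow, a sort gate of blood-forming progenitors that lack lineage markers, carry Sca-1 and Kit and lack CD150. The deleted group was 3 mice of genotype Cebpafl/fl;Mx1Cre, and the control group 3 mice of genotype Cebpafl/fl. All 6 mice carried loxP-flanked Cebpa alleles, received pIpC and were taken at day 18. Mx1Cre is a Cre recombinase under the interferon-responsive Mx1 promoter, active in many cell types, and pIpC is a double-stranded RNA that switches it on. No control mouse carried Mx1Cre, and for that reason the presence of Cre and the loss of Cebpa cannot be told apart. The sources used here give no ages. Each mouse was read on an Affymetrix Mouse Gene 1.0 ST array of its own, and all values are log2 row values.

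A microRNA gene is transcribed into a long primary transcript, on its own or inside a host gene. Drosha with Dgcr8 cuts out a hairpin, Dicer1 cuts the hairpin to a short duplex, and the mature strand guides Argonaute proteins to messages that pair with its seed. miR-223 is abundant in the granulocyte lineage and is a known target of C/EBPα, the transcription factor encoded by Cebpa. miR-142 is made throughout the blood lineages, miR-155 and miR-146a are induced in inflammatory signalling, and miR-103 with its relative miR-107 comes from introns of the pantothenate kinase (Pank) genes. The labelled material was amplified cDNA of total RNA, and these values do not tell primary transcript, hairpin and mature strand apart.

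The mature strands of the miR-103 and miR-107 family are shown because their genes gave unequal values on the array although the products are nearly the same. They are from RefSeq (GRCm38.p6), 5′ to 3′, with the seed, bases 2 to 8, in capitals.
mmu-miR-103-3p, from Mir103-2 and from Mir103-1: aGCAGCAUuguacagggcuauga
mmu-miR-107-3p, from Mir107: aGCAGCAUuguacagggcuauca
mmu-miR-103-2-5p: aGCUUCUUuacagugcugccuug
mmu-miR-103-1-5p: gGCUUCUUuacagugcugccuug
mmu-miR-107-5p: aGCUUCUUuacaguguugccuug
The 3p strands of Mir103-2 and Mir103-1 were identical over 23 bases. That of Mir107 differed from them by G22C, counted from 1 at the 5′ end, outside the seed. The 5p strand of Mir103-2 differed from that of Mir103-1 by A1G and from that of Mir107 by C16U, so all 3 genes shared both seeds.

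The hairpins show where the family members can be told apart. Capitals mark the mature strands.
Mir103-2 hairpin, chr2:131288052-131288137, plus strand: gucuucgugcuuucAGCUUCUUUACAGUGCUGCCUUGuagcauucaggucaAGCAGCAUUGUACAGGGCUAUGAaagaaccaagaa
Mir103-1 hairpin, chr11:35782396-35782481, plus strand: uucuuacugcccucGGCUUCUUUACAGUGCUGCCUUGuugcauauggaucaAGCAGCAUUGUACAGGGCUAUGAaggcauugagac
Mir107 hairpin, chr19:34820687-34820773, minus strand: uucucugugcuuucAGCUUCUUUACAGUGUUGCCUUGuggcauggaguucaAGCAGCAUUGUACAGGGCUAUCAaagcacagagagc
The hairpins of Mir103-2 and Mir103-1, each 86 bases long, shared a run of 27 bases around the 3p strand. Probes of this array type are 25 bases long, and 3 of the 62 windows of that length in the Mir103-2 hairpin also stood in Mir103-1. Mir107 shared no window of 25 bases with Mir103-2, its longest shared run being 24 bases. Over all 1004 other mouse hairpins of the RefSeq table, Mir103-1 was the only one that shared such a window with Mir103-2. For Mir142, Mir155, Mir146 and Mir223 the number of other hairpins with a shared window was 0. The positions of the probes themselves were not used here.

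The other measured genes carry different seeds, and their main mature strands are shown for that reason, with the unmeasured miR-223 last.
mmu-miR-142a-3p: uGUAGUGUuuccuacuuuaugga
mmu-miR-142a-5p: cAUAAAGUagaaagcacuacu
mmu-miR-155-5p: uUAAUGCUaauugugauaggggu
mmu-miR-146a-5p: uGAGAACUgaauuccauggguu
mmu-miR-146b-5p, from Mir146b: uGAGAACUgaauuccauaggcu
mmu-miR-223-3p: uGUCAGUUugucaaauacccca
Mir142 lies at chr11:87756864-87756927, within the span of another microRNA gene, Mir142b. Mir155 lies at chr16:84714140-84714204, inside the non-coding RNA Mir155hg. Mir146, the gene of miR-146a, lies at chr11:43374397-43374461, and no other gene of the table spans it. miR-146a-5p and miR-146b-5p share a seed and differ by G18A and U21C. Mir223 lies at chrX:96242817-96242926.

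Across the 6 arrays the median of all rows lay between 6.16 and 6.20 in deleted mice and between 6.22 and 6.23 in control mice. Precision is limited by the number of arrays, 3 for each genotype. Cebpa read 6.37, 5.82 and 6.09 in deleted mice, against 7.84, 7.85 and 7.73 in control mice, and fell by 1.71 ± 0.14 (SE) on the log2 scale (limma adjusted p = 0.000883). Whether its probes lie inside the deleted part was not checked. Of the gate markers, Kit was bright, whereas Slamf1, which encodes CD150, was dim, with a mean of 4.25 in deleted mice and 3.72 in control mice. Ptprc, Cd34, Flt3 and Cd48, which are not part of the gate as described, were also bright. In the sorted cells Cd48 rose by 1.00 ± 0.11, Kit fell by 0.75 ± 0.13 and Flt3 fell by 0.71 ± 0.14 (SE, limma adjusted p = 0.0052, 0.027 and 0.0469). Ly6a, which encodes Sca-1, is not analysed here. The mice are labelled female, but the Y-linked genes Kdm5d (8.07 to 8.48) and Eif2s3y (8.04 to 8.49) were bright on all 6 arrays, against that label. Uty, also Y-linked, read 6.60 to 7.23, above the median of all rows, 6.20.

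Mir103-2 was far lower in deleted mice. Its row read 5.35, 5.57 and 6.02 in deleted mice a, b and c, against 7.90, 9.04 and 7.34 in control mice a, b and c. All deleted values lay below the median of all rows, 6.20, and all control values above it, so the groups did not overlap. The means were 5.65 ± 0.34 in deleted mice and 8.09 ± 0.86 in control mice (SD, n = 3 each). The log2 difference, deleted minus control, was -2.44 ± 0.36 (SE), a 5.44-fold lower value with a 95% interval of 3.11 to 9.51. Control b was the brightest array, and without it the difference was -1.97.

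Mir142 was lower by a smaller amount, in dim values. It read 4.62, 4.24 and 4.35 in deleted mice, against 6.36, 5.62 and 4.95 in control mice. The groups did not overlap, with control c nearest to the deleted mice and control a farthest from them. The means were 4.40 ± 0.19 in deleted mice and 5.65 ± 0.71 in control mice (SD, n = 3 each), and the log2 difference was -1.25 ± 0.29 (SE). It ranged from -1.59 without control c to -0.89 without control a. Of the 6 values, only that of control a exceeded 6.20, the median of all rows.

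**Figure D1:**
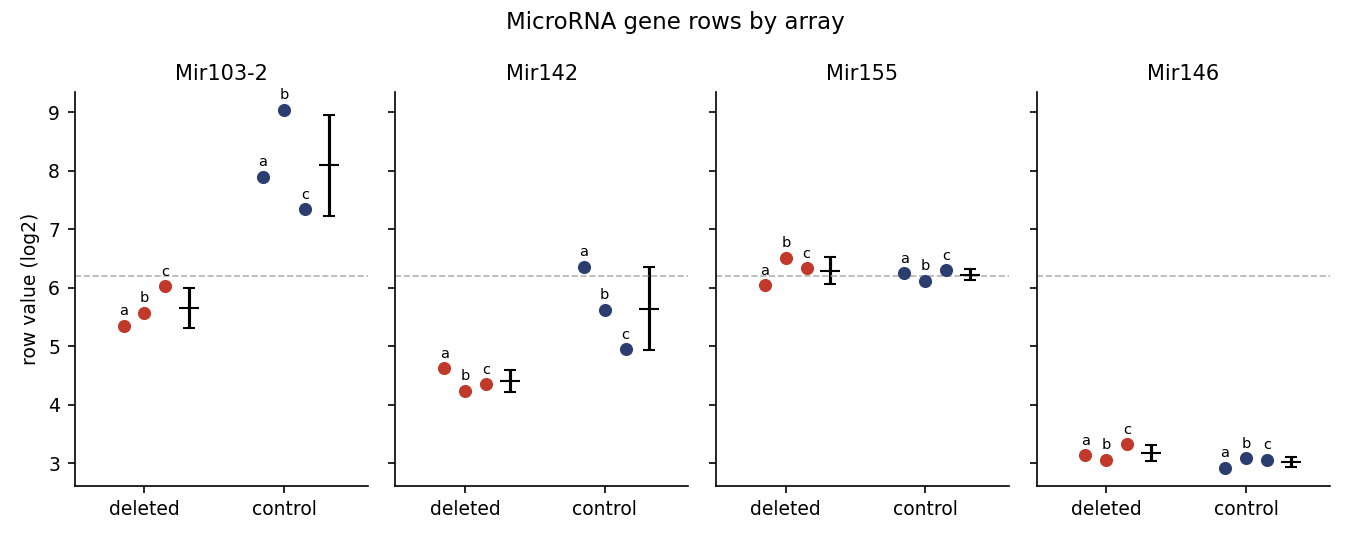
Row values (log2) of Mir103-2, Mir142, Mir155 and Mir146 in the 3 deleted mice (red) and the 3 control mice (blue), a letter per mouse. Black bars are means with SD and the dashed line is the median of all rows, 6.20. The deleted and control values of Mir103-2 and Mir142 do not overlap, and those of Mir155 and Mir146 do.

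Mir155 did not separate the genotypes. It read 6.04, 6.51 and 6.33 in deleted mice, against 6.25, 6.12 and 6.30 in control mice, with the lowest and the highest value both among the deleted mice. The log2 difference was 0.07 ± 0.13 (SE), with a 95% interval of -0.23 to 0.37. The value of Mir155 lay near the median of all rows, at the 45.9th percentile of gene means.

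Mir146 read 3.13, 3.06 and 3.32 in deleted mice, against 2.92, 3.08 and 3.06 in control mice. These groups overlapped, and the log2 difference was 0.15 ± 0.11 (SE, 95% interval -0.10 to 0.39). Its mean stood at the 0.4th percentile of all gene means, so it was among the dimmest rows of the array. Its relative Mir146b read 4.93, 5.23 and 5.63 in deleted mice, against 5.28, 5.59 and 5.27 in control mice, and also overlapped (log2 difference -0.12 ± 0.18 SE, limma adjusted p = 0.806).

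Mir103-2 and Mir142 were the 2 of 4 measured genes whose genotypes did not overlap, as was so for 21.2% of all genes, and both were lower, as 8.68% of all genes were without overlap. Since Mir103-2 was picked for its fall, nothing is read from that count. Each array read the sorted cells of a mouse in bulk, so fewer cells with a transcript and less of it per cell cannot be told apart.

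Mir103-2 and Mir142 also varied far more between mice of a genotype than Mir155 and Mir146. Their SD within genotypes was 0.66 and 0.52, at the 99.8th and the 99.4th percentile of all genes. Mir155 had an SD of 0.18 (66.9th percentile) and Mir146 one of 0.11 (29.1 percentile). Among 296 microRNA genes on the array 35 (11.8%) lay in the top 5% of spread, and 175 (59.1%) lay in the dimmest 25% of all genes. The median SD was 0.161 over microRNA genes and 0.147 over all genes.

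**Figure D2:**
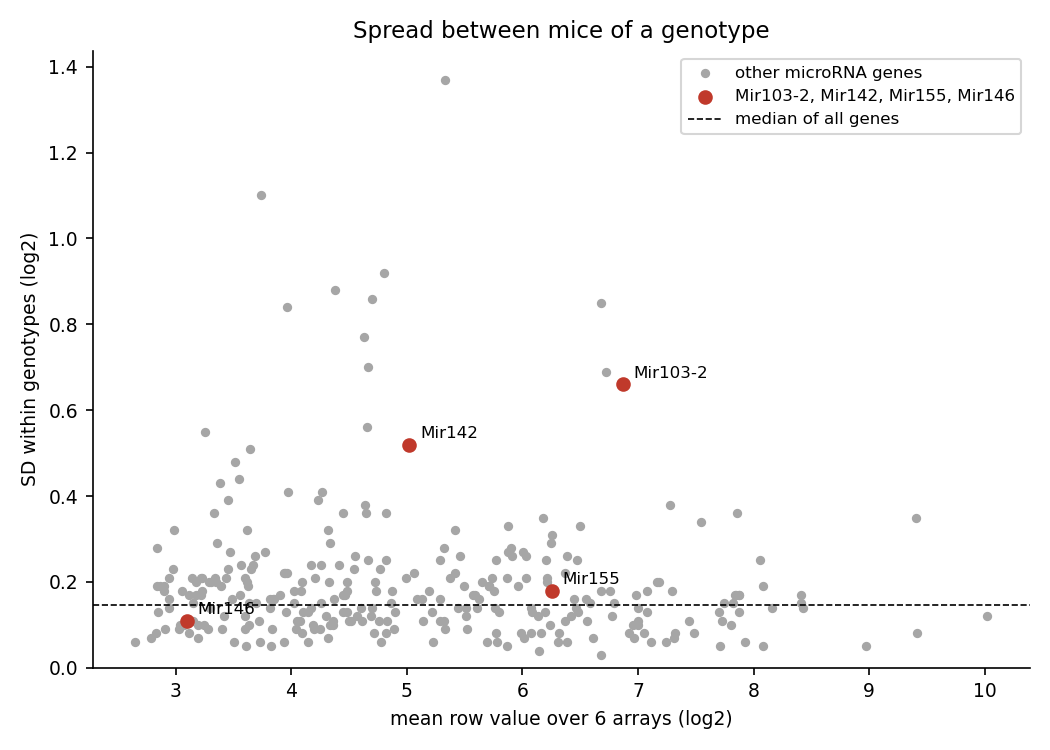
SD within genotypes (log2) against the mean row value over 6 arrays (log2) for 296 microRNA genes, a point per gene, with the measured members in red. The dashed line is the median SD of all genes, 0.147. Mir103-2 (0.66) and Mir142 (0.52) stand well above it.

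Among the 296 microRNA genes, Mir103-2 and Mir142 had the lowest and the second lowest log2 difference. Next in that order stood Mir695 (-1.20), Mir18 of the miR-17 cluster (-1.10) and Mir186 (-1.03). The rank of Mir103-2 follows from its choice by its fall, so nothing is read from it. The median difference of all microRNA genes was 0.00, with quartiles of -0.14 and 0.12, and 146 of 296 were below 0. Mir155 and Mir146 were placed at ranks 189 and 233 from the lowest. The threshold for genes that did not enter the choice was a limma adjusted p under 0.05, which 1.43% of all genes passed, 0.732% as lower and 0.702% as higher. Of the 292 microRNA genes outside the chosen ones, 1 passed (0.342%). That gene, Mir695, read 5.05, 5.62 and 5.17 in deleted mice, against 6.06, 6.66 and 6.71 in control mice, and fell by 1.20 ± 0.20 (SE, limma adjusted p = 0.0241). Its call was lost without control b, control c, deleted a or deleted c, with an adjusted p of up to 0.0963.

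**Figure D3:**
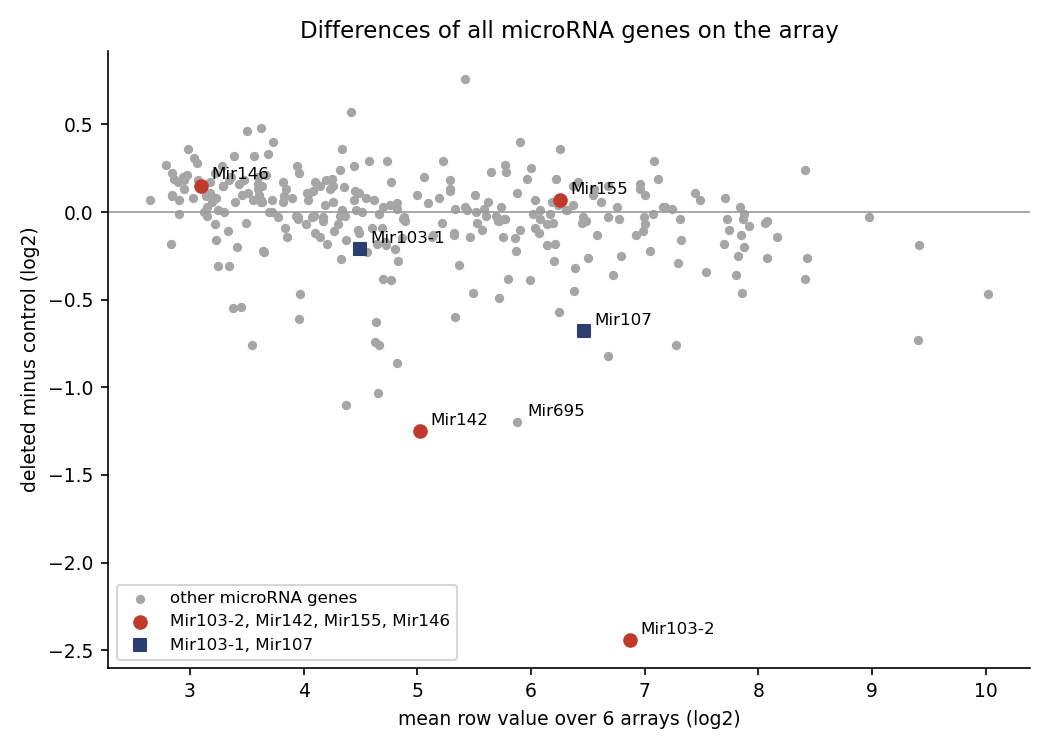
Log2 difference, deleted minus control, against the mean row value over 6 arrays (log2) for 296 microRNA genes, a point per gene. The measured members are red, and Mir103-1 and Mir107 are blue squares. Mir103-2 (-2.44) and Mir142 (-1.25) are the lowest points, and the quartiles of all points are -0.14 and 0.12.

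A list of other microRNA genes of blood cells, written from general knowledge, showed no call. Of 58 measured members 0 passed limma in either direction, and 29 were higher and 29 lower. An unadjusted p under 0.05 was found for 6 of the 58, and for 15.9% of all genes, the share against which each such count below is to be read. The median difference was 0.00, against 0.03 over all genes. The smallest p belonged to Mir107 and to Mir181a-2, which comes from a locus of the lymphoid-regulating miR-181 family (log2 difference -0.38 ± 0.12 SE, limma adjusted p = 0.149).

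The relatives of Mir103-2 were lower by less. Mir107 read 6.01, 6.20 and 6.18 in deleted mice, against 6.62, 6.62 and 7.19 in control mice. Its groups did not overlap, but its log2 difference of -0.68 ± 0.16 (SE) did not pass (limma adjusted p = 0.0772, 0.0512 to 0.164 over 15 other settings). Mir103-1, whose mature 3p strand is that of Mir103-2, read 4.26, 4.37 and 4.54 in deleted mice, against 4.60, 4.67 and 4.54 in control mice. The groups did not overlap, although deleted c and control c of Mir103-1 both round to 4.54, and the difference was -0.21 ± 0.11 (SE, limma adjusted p = 0.387). The 3 genes of this family thus gave differences of -2.44, -0.68 and -0.21. That these differ from each other was not tested.

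Pank2, the pantothenate kinase gene whose span of chr2:131262008-131299188 holds Mir103-2 on its plus strand, did not pass the threshold. It read 9.70, 9.57 and 9.60 in deleted mice, against 9.76, 9.75 and 9.75 in control mice, without overlap but with deleted a close to the control mice. Its log2 difference was -0.13 ± 0.10 (SE, 95% interval -0.35 to 0.09, limma adjusted p = 0.575), whereas that of Mir103-2 was -2.44. The other kinases of coenzyme A synthesis gave 0.05 ± 0.12 for Pank3, which spans Mir103-1, 0.29 ± 0.12 for Pank1, which spans Mir107, and -0.26 ± 0.11 for Pank4 (SE, limma adjusted p = 0.898, 0.274 and 0.289). The microRNA row gave the lower difference in each of the 3 pairs, but Mir103-2 was picked for its fall, so nothing is read from that. Over the 133 pairs described below, the microRNA difference minus that of the spanning gene had a median of -0.02. None of the Pank genes passed (0 of 4, with 2 at an unadjusted p under 0.05).

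**Figure D4:**
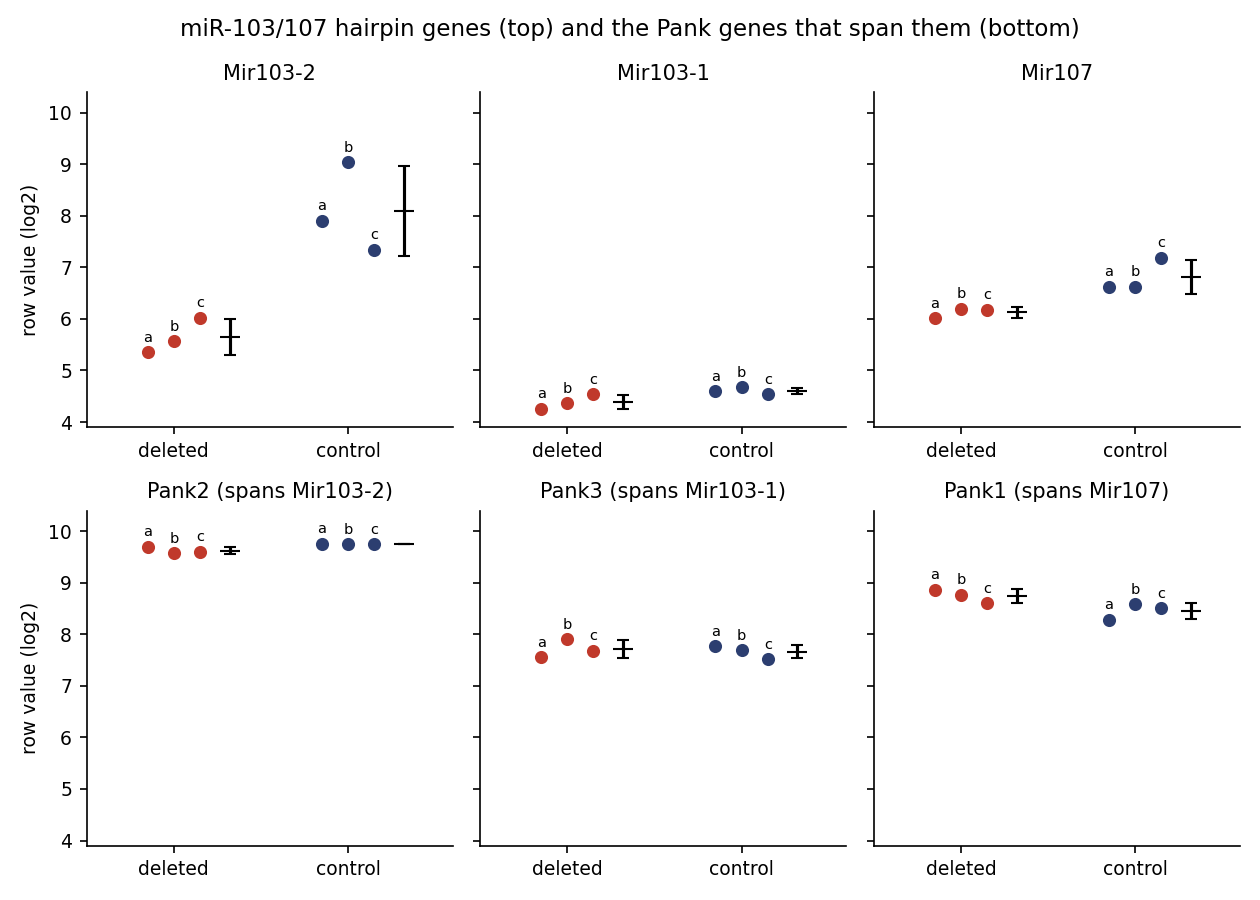
Row values (log2) of Mir103-2, Mir103-1 and Mir107 (top) and of the Pank genes that span them (bottom) in deleted (red) and control (blue) mice, with means and SD in black. Mir103-2 has a mean of 5.65 in deleted and 8.09 in control mice, and Pank2 one of 9.62 in deleted and 9.75 in control mice.

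Other microRNA genes inside protein-coding genes give the setting for this pair. Over 133 microRNA genes that lie within 99 measured protein-coding genes, Pearson's r was 0.00 between the log2 differences of the microRNA row and the spanning gene, and -0.13 between their mean row values. These pairs share the 6 arrays, and several microRNAs share a spanning gene, so both are descriptions. Pairs were taken by position and not by strand, so a pair need not share a transcript. The microRNA difference minus that of the spanning gene had a median of -0.02 and quartiles of -0.19 and 0.18. For Mir103-2 it was -2.31, the lowest of the 133, followed by Mir186 in Zranb2 (-1.19) and Mir302d in Larp7 (-1.13). Since Mir103-2 was picked for its fall, nothing is read from its place in this order. Mir107 in Pank1 was at -0.97 and ranked 6 from the lowest.

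F630028O10Rik, the long non-coding RNA whose span of chrX:96239926-96243642 holds Mir223, stands nearest to that microRNA here. It read 5.94, 6.45 and 6.01 in deleted mice, against 6.24, 7.24 and 6.98 in control mice. The groups overlapped through control a and deleted b, and the log2 difference of -0.69 ± 0.24 (SE, 95% interval -1.22 to -0.15) did not pass (limma adjusted p = 0.198). Without control a it was -0.98 (adjusted p = 0.0546), and without control b -0.48 (adjusted p = 0.475). The protein-coding neighbours of Mir223 were Vsig4, a complement receptor of macrophages (0.28), Hsf3 (0.20) and Msn, which encodes the membrane linker moesin (0.14).

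Of 23 spanning, partner and neighbouring genes of all 5 microRNA genes, 0 passed limma, with 4 at an unadjusted p under 0.05, a share near the 15.9% of all genes. Around Mir142 the log2 differences were 0.00 for Rnf43, 0.16 for Hsf5, 0.11 for Tspoap1 and 0.25 for Mpo, the myeloperoxidase of neutrophil precursors. Around Mir155 they were -0.03 for Ncam2, 0.14 for Tmprss15, 0.16 for Mrpl39 and 0.05 for Jam2. Around Mir146 they were 0.12 for Atp10b, 0.00 for Gabrb2, 0.08 for Pttg1 and 0.48 for the splicing factor Slu7. Slu7 missed the threshold (limma adjusted p = 0.0582) and passed under 4 other settings, with an adjusted p of 0.0383 to 0.0457. Beside Pank2, the neighbours of Mir103-2 were Mavs (-0.08), Rnf24 (-0.15) and Smox (-0.16).

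Among 26 genes that make microRNAs or act with them, 1 rose and 0 fell, where 1.43% of all genes passed. Prkra, which encodes the Dicer partner PACT, read 7.40, 7.58 and 7.68 in deleted mice, against 6.76, 6.96 and 7.08 in control mice. Its groups did not overlap, and it rose by 0.62 ± 0.12 (SE, limma adjusted p = 0.0455). Leaving out any of the 6 arrays ended the call (adjusted p between 0.0567 and 0.137). The core enzymes gave small differences, -0.01 for Drosha, 0.09 for Dgcr8 and 0.10 for Dicer1, none of which passed. The list had a median of -0.05, against 0.03 over all genes, with 17 members lower and 9 higher. Of its 6 members with an unadjusted p under 0.05, 5 had lower values in deleted mice without passing. These were the helicase genes Ddx17 (-0.56) and Ddx5 (-0.29), the Argonaute genes Ago2 (-0.41) and Ago3 (-0.37), and Tut4 (-0.33), which encodes a uridylyl transferase.

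Reported targets of these microRNAs, from general knowledge of the literature, showed 1 call among 48 distinct measured genes of 5 lists, where 1.43% of all genes passed. An unadjusted p under 0.05 was found for 11 of the 48 and for 15.9% of all genes. Meis1, a stem cell transcription factor on the miR-155 list, read 8.53, 8.33 and 8.22 in deleted mice, against 9.37, 9.28 and 9.09 in control mice, and fell by 0.89 ± 0.12 (SE, limma adjusted p = 0.0117). Its call was lost without control b or deleted b (adjusted p = 0.0553 and 0.0554). It was the 1 call among 13 measured targets of miR-155, whose median difference was 0.09, beside a difference of 0.07 for Mir155 itself.

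For miR-103 and miR-107, 0 of 8 targets passed limma (1 at an unadjusted p under 0.05), with a median of 0.08. The smallest p belonged to Axin2, a Wnt feedback gene (0.37 ± 0.11 SE, adjusted p = 0.129), and to Ccne1, which encodes cyclin E (0.22 ± 0.11 SE, adjusted p = 0.382). For miR-142, 0 of 8 passed (1 at an unadjusted p under 0.05) with a median of -0.15 and 7 members lower. The smallest p belonged to the cytokine gene Il6 (0.53) and the GTPase gene Rac1 (-0.21). Il6 was dim, at the 1.9th percentile of gene means. It read 3.44, 3.35 and 4.34 in deleted mice, against 3.19, 3.10 and 3.24 in control mice. For miR-146a, 0 of 8 passed (1 at an unadjusted p under 0.05) with a median of -0.10, led by the interleukin-1 receptor kinases Irak1 (-0.29) and Irak2 (-0.21). For miR-223, 0 of 12 passed (4 at an unadjusted p under 0.05) with a median of -0.01, led by the haematopoietic factor Lmo2 (-0.54, adjusted p = 0.106) and the growth factor receptor Igf1r (-0.50, adjusted p = 0.115). All genes together had a median of 0.03, and 15.9% of them had an unadjusted p under 0.05.

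Of 17 transcription factors reported at microRNA genes, 1 passed, and that was Cebpa, the gene the study deleted. The median difference of these factors was -0.03. An unadjusted p under 0.05 was found for 5 of the 17. Beside Cebpa these were its relative Cebpb (0.70) and Spi1 (0.30), which encodes PU.1, both higher, and Lmo2 (-0.54) and Nfia (-0.50), both lower, none of which passed.

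**Figure D5:**
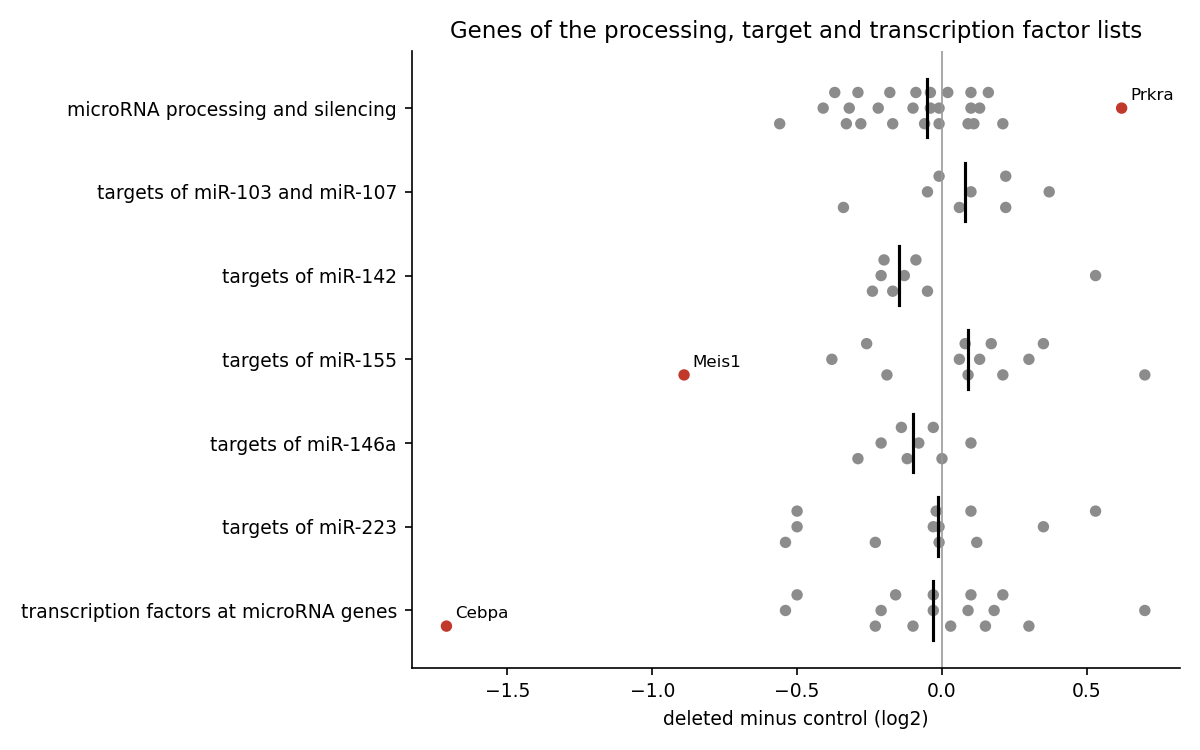
Log2 difference, deleted minus control, of the genes of 7 lists, a point per gene, with red points for limma adjusted p under 0.05 and black bars for list medians. The red points are Prkra (0.62), Meis1 (-0.89) and Cebpa (-1.71), and the list medians lie between -0.15 and 0.09.

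Of 19 markers of neutrophils and their precursors, 4 fell and 0 rose in the same comparison, where 1.43% of all genes passed limma. An unadjusted p under 0.05 was found for 10 of the 19, 8 of them lower and 2 higher. The 4 that fell were S100a8 (by 3.51), S100a9 (by 3.37), Csf3r (by 1.09) and Camp (by 0.97) on the log2 scale. The other 15 did not pass. Among them were Ngp (-0.61), Elane (-0.57), Chil3 (-0.44), Prtn3 (-0.31), Lcn2 (-0.25), Ltf (-0.19) and Mmp9 (-0.03). The list median was -0.25, with 14 members lower and 5 higher, including Cxcr2 (0.46), Ctsg (0.26) and Mpo (0.25). The mean row value over the list was 5.95 to 6.07 in deleted mice and 6.56 to 6.58 in control mice. No marker read 0, since background keeps row values above it, and the dimmest was Ly6g with a mean of 3.83. Of 10 markers of mast cells and basophils, Cpa3 rose by 3.47, Gzmb rose by 2.20 and Kit fell by 0.75 (5 at an unadjusted p under 0.05). That list had means of 6.56 to 6.97 in deleted mice and 6.19 to 6.25 in control mice, but a median difference of 0.03, with 5 members higher and 5 lower, Cma1 (-0.45) among the lower ones. Their part in the values of Mir103-2, Mir142 and F630028O10Rik was not tested. Of 10 monocyte and macrophage markers Cd68 and Lyz1 passed as lower (4 at an unadjusted p under 0.05). That list had a median difference of 0.06, with 6 members higher and 4 lower. Of 9 B cell markers Cd72 passed as lower (2 at an unadjusted p under 0.05). There the median was 0.10, with 7 members higher and 2 lower. Of 9 T and NK cell, 7 erythroid and 7 megakaryocyte and platelet markers 0 passed limma (1, 2 and 4 at an unadjusted p under 0.05).

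The patterns most like each member over the 6 arrays are given as a description, since 6 points leave many near matches. For Mir103-2 they were Capsl (Pearson's r = 0.999) and the microtubule-severing relative Katnal1 (0.998), and 96 genes had an r over 0.95. For Mir142 they were Slc35c2 (0.996) and the polarity kinase gene Mark2 (0.994), for Mir155 Olfr1225 and Gm10710 (both 0.992), and for Mir146 Cfap126 (0.993) and Slc25a46 (0.992). Capsl, the closest to Mir103-2, read 6.61, 6.72 and 6.84 in deleted mice, against 7.53, 7.88 and 7.34 in control mice, and so had the same order of arrays.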

How the data were processed

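Total RNA of sorted cells (20 ng a mouse, per the labels' protocols) was amplified to cDNA, and 2.5 µg was labelled with biotin for 1-colour arrays. Each deposited value is a log2 summary of a probe set. The submitters' processing notes list RMA and Affymetrix Expression Console 1.1.2. Their settings and annotation build are not stated. RMA corrects background and normalizes arrays together, which can compress dim rows. The 35556 rows were used as deposited, with no filter, and no detection calls were used.

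Rows were named through the platform's annotation: 21789 name 1 gene, 1621 several and 12146 are unnamed here. For the 999 genes with several rows, the row with the highest mean was kept, giving 19938 genes. All 6 arrays entered a limma 3.58.1 fit (R 4.3.3, lmFit and eBayes, two-sided, Benjamini-Hochberg over all genes, threshold 0.05). The prior had 5.52 degrees of freedom. The fit was also run on data simulated from that prior, which does not check the calls on these arrays. With 3 mice against 3, an exact permutation test cannot go below p = 0.1, so none was run. Positions and sequences came from RefSeq tables (GRCm38.p6), since the files hold none. List genes were matched by symbol, microRNAs also by synonym. Tables and figures used Python 3.11.15, pandas 2.3.3 and matplotlib 3.10.9.

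Named were the 5 members and their family, members of a list that passed (or the 2 with the smallest p), spanning genes, the 2 nearest measured genes on each side, and the 2 most alike genes. Also named were the gate markers, the progenitor genes listed with them and the microRNA genes next to Mir103-2 in the order of differences. Drosha, Dgcr8, Dicer1, 4 transcription factors, Mir146b, processing and marker genes that did not pass and microRNA genes far from their spanning gene were named after their values were seen. The members and lists were chosen with earlier results of these data known. Alternatives were 3 normalizations, 2 priors, 2 intensity filters, averaging a gene's rows, the title letters as a block and leaving out each array.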

Additional observations from a re-analysis of the deposited data

How the results depend on the processing

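The log2 difference of Mir103-2 kept its direction under all 15 alternatives. It lay between -2.44 and -2.40 under the 9 settings that keep all arrays and between -2.82 and -1.97 with an array left out. Since the row was chosen for its fall on these same arrays, this is no test of the fall. The log2 difference of Mir142 lay between -1.29 and -1.20 under the 7 settings that kept its row, and between -1.59 and -0.89 with an array left out. Both intensity filters removed Mir142 and Mir146, and the stricter one Mir155. Mir155 lay between -0.04 and 0.20 and Mir146 between 0.07 and 0.20 with an array left out. Mir146 moved to 0.03 under cyclic loess, and the cause was not tested. Pank3, which did not pass, reversed to -0.02 without control c and to -0.05 without deleted b, in a range of -0.05 to 0.13 with an array left out, where fewer samples entered.

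The 286 genes called became 438 above the median intensity, where fewer genes were tested, and 53 to 250 with an array left out, where fewer samples entered. Of them 49.0% were higher, against 61.6% after quantile normalization and 65.8% after median centring. Calls among all microRNA genes numbered 2, against 1 above the median intensity, 4 with the title letters as a replicate block, and 0 to 6 with an array left out. These counts run over all microRNA genes, the chosen ones included. For the chosen genes they are no test of a difference and say nothing of how stable it is. Mir103-2 was picked for its fall on these same arrays, and the chosen genes are given as a description only. Among the microRNA genes outside the chosen ones, Mir677 and Mir695 passed with the block. Deviations of equal letters correlated at -0.011, -0.039 and 0.061 over all genes. Such values cannot settle whether the letters pair the mice, since a shared shift in part of the genes could go unseen. Processing genes had 0 calls whichever array was left out, and target genes 0 or 1. Among spanning and neighbouring genes, Slu7 made 1 call under quantile normalization, median centring and both intensity filters. Dim rows such as Mir146 and Mir142 limit what the array can show.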

Other observations

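Control a was the brightest array for several dim microRNA rows, a selection made after the values were seen. Mir18 read 3.88, 3.97 and 3.64 in deleted mice, against 6.32, 4.50 and 3.95 in control mice. Mir20a, of the same miR-17 cluster, read 4.17, 4.49 and 4.20 in deleted mice, against 6.01, 5.06 and 4.06 in control mice. Mir302d read 4.46, 4.13 and 4.58 in deleted mice, against 5.60, 5.40 and 4.75 in control mice, and Mir350 read 4.18, 4.24 and 4.56 in deleted mice, against 5.33, 5.15 and 4.38 in control mice. The row of Mir142 had the same order among control mice, with 6.36, 5.62 and 4.95. Control a held the highest of the 6 values for 54 of 296 microRNA genes (18.2%) and for 14.6% of all genes. Mir103-2 did not share that order, since control b was its brightest array.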
